A study of Mus musculus with 28 samples.

Results

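The mitochondrial genome of the mouse was described here through its 37 genes, chosen as every gene whose symbol starts with mt- among the 53392 genes of the quantification. They comprise 13 mRNAs, 2 rRNAs and 22 tRNAs, all on chromosome MT. RNA had been sequenced from kidney cells of FVB male mice, an inbred strain, in 10 groups of 2 or 3 samples, 28 samples in all. Endothelial cells had been pulled from digested kidneys with CD31 microbeads, and proximal tubular cells had been microdissected. In each cell type there were mice with acute kidney injury (AKI) given a miR-486-5p mimic (mimic, n = 2), AKI given exosomes (EXO, n = 3), AKI given scrambled miRNA as the control for the mimic (SCB, n = 3), untreated AKI (n = 3) and sham surgery without injury (n = 3). Per-sample values were available for the 16 mimic, EXO and SCB libraries, which all carry the injury. Untreated and sham samples entered only through 12 comparison tables deposited by the authors. Whether the cell preparations of a group came from separate mice is not stated beyond a note of 3 mice per group, so the p-values measure the spread between these samples. Endothelial and tubular samples share most library numbers, and the labels do not say whether a number is a single mouse.

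Mitochondrial DNA is a small circle that encodes core subunits of respiratory complexes I, III, IV and V, together with the rRNAs and tRNAs that translate them inside the organelle. Both strands are transcribed as long precursors, and the tRNAs that sit between the other genes are cut out to release them. Every other subunit, and all of complex II, is made from nuclear genes. Proximal tubule and thick ascending limb are the kidney segments known for dense mitochondria, and loss of mitochondrial function is a known feature of ischemic kidney injury.

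Depth ran from 8273783 to 25326882 estimated reads per library, with a median of 12443074 in endothelial and 12960083 in tubular libraries. The mimic libraries were the deepest of each cell type. The labelled cell types were checked against marker lists. The summed level of 10 endothelial markers averaged 2007 ± 400 CPM (read counts scaled by the library total) in endothelial libraries and 117 ± 26 CPM in tubular libraries (SD, n = 8 each). The summed level of 12 proximal tubule markers was 6895 ± 6347 CPM in endothelial libraries, against 35498 ± 10929 CPM in tubular libraries. The endothelial libraries also carried 10 markers of the thick ascending limb at 28014 ± 13993 CPM, against 1152 ± 409 CPM in tubular libraries, and this sum was above that of the endothelial markers in every endothelial library. Mean sums were higher there too for podocyte markers (1854 ± 342 against 74 ± 56 CPM) and distal tubule and collecting duct markers (1646 ± 968 against 351 ± 149 CPM). The same held for macrophage (602 ± 172 against 180 ± 122 CPM) and injured tubule markers (13251 ± 11796 against 1364 ± 1792 CPM). Erythroid and fibroblast and pericyte markers also had higher mean sums there, at lower levels. In bulk samples like these, fewer cells of a type and less RNA per cell cannot be told apart.

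Several mitochondrial genes have near-identical copies in the nuclear genome, and those copies decide how some reads can be assigned. A block on chromosome 1 of GRCm38, chr1:24611535-24616197 on the minus strand, is annotated as 7 unprocessed pseudogenes that match parts of mt-Co1, mt-Co2, mt-Atp6, mt-Co3, mt-Nd3, mt-Nd4l and mt-Nd4 at 99% identity or more. No mismatch was found over the aligned bases except in the mt-Co1 and mt-Nd3 pairs, which had a single one each. The 30-base windows below show both mismatches, with the differing base in capitals. The genome sequences are those of GRCm38, written 5′ to 3′ in the direction of the gene. The mt-Co1 window lies at MT:6390-6419 on the plus strand and its copy at chr1:24616159-24616188 on the minus strand, and the substitution is A1066T, counted from the first base of mt-Co1.
mt-Co1: ggaAttgttttatccaactcatcccttgac
Gm29216: ggaTttgttttatccaactcatcccttgac
The mt-Nd3 window lies at MT:9459-9488 on the plus strand and its copy at chr1:24613090-24613119 on the minus strand, and the substitution is T3C, counted from the first base of mt-Nd3.
mt-Nd3: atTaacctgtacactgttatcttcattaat
Gm28438: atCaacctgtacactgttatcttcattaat

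Reads that fall inside a shared stretch cannot be told apart between both genomes. Together the 7 copies held 9.38% to 16.8% of the reads on copies plus mitochondrial genes, depending on the library. Gm28438 took 84.8% ± 3.51 of the reads of its pair with mt-Nd3 (SD, n = 16), so the deposited mt-Nd3 level counts a small part of that pair. Gm28661 took 30.4% ± 8.61 of the mt-Co2 pair, and Gm10925 took 29.3% ± 10.4 of the mt-Atp6 pair. For mt-Nd4 (12.98% ± 3.81) and mt-Co1 (12.2% ± 1.91) the share was lower, and for mt-Co3 (1.29% ± 1.33) and mt-Nd4l (0.13% ± 0.31) it was close to nothing. Results for these 7 mRNAs were therefore also computed with the copies' reads added.

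The second set of sequences is shown because 4 tRNAs that lie side by side on the minus strand, between mt-Nd2 and mt-Co1, later moved against the mRNAs. The known anticodon, located by its stem and loop, is in capitals, and the sequences are read along the minus strand of chromosome MT (GRCm38). mt-Ta carries alanine (MT:5018-5086), mt-Tn asparagine (MT:5089-5159), mt-Tc cysteine (MT:5192-5257) and mt-Ty tyrosine (MT:5260-5326).
mt-Ta: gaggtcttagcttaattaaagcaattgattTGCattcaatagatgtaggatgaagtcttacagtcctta
mt-Tn: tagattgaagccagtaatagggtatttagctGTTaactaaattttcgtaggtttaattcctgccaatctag
mt-Tc: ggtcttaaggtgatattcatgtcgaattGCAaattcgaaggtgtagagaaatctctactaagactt
mt-Ty: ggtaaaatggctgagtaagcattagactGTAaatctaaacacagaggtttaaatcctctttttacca
mt-Ts1, a serine tRNA at MT:6870-6938 on the minus strand that overlaps the last bases of mt-Co1, is shown for contrast because it held the most reads of any tRNA and moved with the mRNAs. The annotated overlap is 3 bases. The strand setting of the counts is not given, so mt-Ts1 reads may not be told apart from plus-strand reads over the same bases. The same limit holds for the 4 tRNAs above.
mt-Ts1: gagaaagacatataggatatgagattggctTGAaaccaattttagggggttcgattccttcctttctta

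Mitochondrial genes took a large part of every library. The share of all reads on the 37 genes was 15.8% and 14.6% in the endothelial mimic libraries, 14.6%, 23.8% and 23.0% in the endothelial EXO libraries, and 9.08%, 12.6% and 14.3% in the endothelial SCB libraries. In tubular libraries it was 8.30% and 5.37% with the mimic, 9.64%, 10.8% and 14.3% with EXO, and 4.51%, 9.73% and 7.81% with SCB. All 3 endothelial EXO libraries lay above all 3 endothelial SCB libraries, whereas the lowest tubular EXO library fell just under the highest tubular SCB library. By class, mRNAs made up 92.3% to 97.1% of the mitochondrial reads, the rRNAs 2.56% to 7.18% and the tRNAs 0.355% to 0.538%. The libraries were made with a poly(A) workflow, and animal mitochondrial mRNAs, unlike the tRNAs, carry poly(A) tails.

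**Figure D1:**
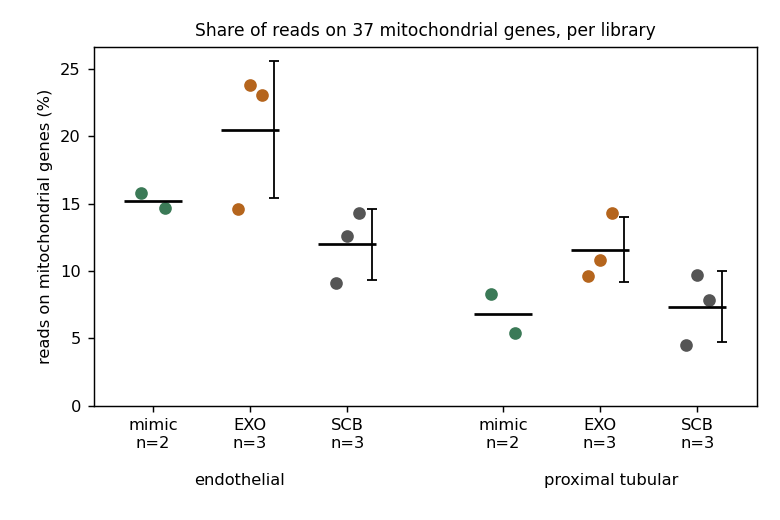
Percent of a library's reads on the 37 mitochondrial genes, one point per library, by cell type and treatment; bars are group means and, for groups of 3, whiskers are 1 SD. The endothelial EXO libraries average 20.5% against 12.0% for endothelial SCB, and the tubular EXO libraries 11.6% against 7.35% for tubular SCB.

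The plot of the mitochondrial share by library shows the same order of EXO above SCB in both cell types, with wide spread. In endothelial cells the mean was 20.5% ± 5.10 with EXO and 12.0% ± 2.65 with SCB (SD, n = 3 each), a difference of 8.50 percentage points. The exact two-sided permutation test gave p = 0.1, which is the smallest value that 3 against 3 libraries can give, and 0.28 after adjustment over 7 comparisons of this share. In tubular cells the mean was 11.6% ± 2.41 with EXO and 7.35% ± 2.64 with SCB, a difference of 4.22 points (exact permutation p = 0.2, adjusted 0.28). Without the first tubular SCB library that difference was 2.80 points. With the mimic, the endothelial share averaged 15.2% against 12.0% for SCB (exact permutation p = 0.2, the smallest that 2 against 3 allows; 1.77 points without the first endothelial SCB library, against 3.22 points with it), and the tubular share averaged 6.83% against 7.35% (exact permutation p = 1). Leaving out either the second tubular mimic library or the second tubular SCB library turned the sign of that last difference, to 0.951 and 0.675 points.

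Between cell types the difference in mean share was larger than the SD over libraries of either cell type. The share was 16.0% ± 5.02 in endothelial libraries and 8.80% ± 3.09 in tubular libraries (SD, n = 8 each), a difference of 7.17 points (exact two-sided permutation p = 0.00342, adjusted 0.0239), although the groups overlapped. On the TPM scale, which divides reads by effective length, the mitochondrial share was 41.0% ± 8.53 in endothelial and 23.7% ± 7.14 in tubular libraries (exact permutation p = 0.000466). TPM values of the shortest genes depend on the quantifier's length correction. Every tRNA had an effective length of 3 bases in every library, and mt-Atp8 alone made up 42.7% to 54.4% of all mitochondrial TPM. For this reason the levels below are given as CPM or, between genes, as CPM per kilobase of annotated length.

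Per kilobase, the mRNAs of complexes IV and V were the most abundant. mt-Co3, a core subunit of cytochrome c oxidase, averaged 31584 ± 10249 CPM per kilobase in endothelial libraries and 17563 ± 5913 in tubular libraries (SD, n = 8 each). It was followed in endothelial libraries by mt-Atp8 at 24650 ± 7981, mt-Co1 at 21674 ± 7311, mt-Atp6 at 20637 ± 5668 and mt-Co2 at 17870 ± 6347, a run in which neighbours differ by less than 1 SD. mt-Cytb, the complex III subunit, reached 15847 ± 5534 in endothelial and 8633 ± 3022 in tubular libraries. Of the complex I subunits, mt-Nd1 was highest at 12489 ± 4045 in endothelial and 7240 ± 2453 in tubular libraries, and mt-Nd5 lay at 4538 ± 1229 and 2920 ± 1174. mt-Nd3 appeared lowest at 1175 ± 384 in endothelial and 900 ± 320 in tubular libraries, but with the reads of its nuclear copy it stood at 7661 ± 2227 and 5819 ± 1571. mt-Rnr1 and mt-Rnr2, the small and large subunit rRNAs, averaged 1885 ± 527 and 2448 ± 591 in endothelial libraries, and 1249 ± 464 and 1549 ± 569 in tubular libraries, in these poly(A)-selected samples.

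The 13 mRNAs varied between libraries mostly as a block. For mt-Co1 the SD over 8 endothelial libraries was 0.47 on the log2 CPM scale, but 0.04 for its log2 share of the mitochondrial mRNA reads. For mt-Cytb the corresponding values were 0.49 and 0.07, and for mt-Nd1 0.45 and 0.07. The log2 shares of mt-Nd5 and mt-Nd6, which have no near-identical copy, had SDs of 0.17 and 0.22 over endothelial libraries. Those of mt-Nd3 and mt-Atp6, which have one, were loose in tubular libraries. The SD of the log2 share was 0.57 for mt-Nd3 and 0.27 for mt-Atp6 over tubular libraries, and 0.26 and 0.06 once the copies' reads were added. A change in one mitochondrial mRNA is therefore not independent of a change in another within the same library.

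Exosome treatment was compared with scrambled miRNA in injured cells. Scrambled miRNA was the control for the mimic and not for exosomes, so a difference cannot be assigned to exosomes alone. In both cell types the fitted level of all 13 mRNAs was higher with EXO, but none passed the test. mt-Cytb had 17248, 28087 and 27335 CPM in endothelial EXO libraries, against 10393, 13431 and 16214 CPM in endothelial SCB libraries. It had 10946, 12178 and 16162 CPM in tubular EXO libraries, against 5584, 10431 and 8320 CPM in tubular SCB libraries. For mt-Cytb no EXO library fell below an SCB library in either cell type.

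The fitted log2 fold change of mt-Cytb, EXO over SCB, was 1.04 ± 0.31 in endothelial cells (SE; adjusted p = 0.255, edgeR quasi-likelihood test with Benjamini-Hochberg adjustment over all genes) and 0.89 ± 0.31 in tubular cells (adjusted p = 0.122). Among complex I subunits, mt-Nd4 had the highest fold change in both cell types, at 1.08 ± 0.32 endothelial and 0.96 ± 0.33 tubular. mt-Nd4 stood at 10949, 18905 and 19729 CPM in endothelial EXO libraries, against 6589, 9460 and 10499 CPM in endothelial SCB libraries. In tubular cells mt-Nd4 was at 6336, 7208 and 9770 CPM with EXO and at 2888, 6330 and 4576 CPM with SCB. For mt-Nd4 the lowest tubular EXO library and the highest tubular SCB library were nearly equal, at 6336 and 6330 CPM. Reads of its nuclear copy are not in these values.

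In complex IV, the log2 fold changes of mt-Co1, mt-Co2 and mt-Co3 were 1.02 ± 0.32, 1.03 ± 0.31 and 1.04 ± 0.31 in endothelial cells and 0.96 ± 0.35, 0.88 ± 0.35 and 0.84 ± 0.32 in tubular cells. mt-Co1, which carries the catalytic core of the oxidase and is the most read mitochondrial mRNA, had 30472, 50504 and 50335 CPM in endothelial EXO libraries against 19024, 25617 and 28396 CPM in endothelial SCB libraries. In complex V, mt-Atp8 and mt-Atp6 were at 1.01 ± 0.28 and 0.86 ± 0.29 in endothelial cells and at 0.82 ± 0.33 and 1.02 ± 0.43 in tubular cells. The lowest mRNA fold change belonged to mt-Nd6, the single mRNA on the minus strand, in endothelial cells (0.66) and to mt-Nd2 in tubular cells (0.74 ± 0.33).

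**Figure D2:**
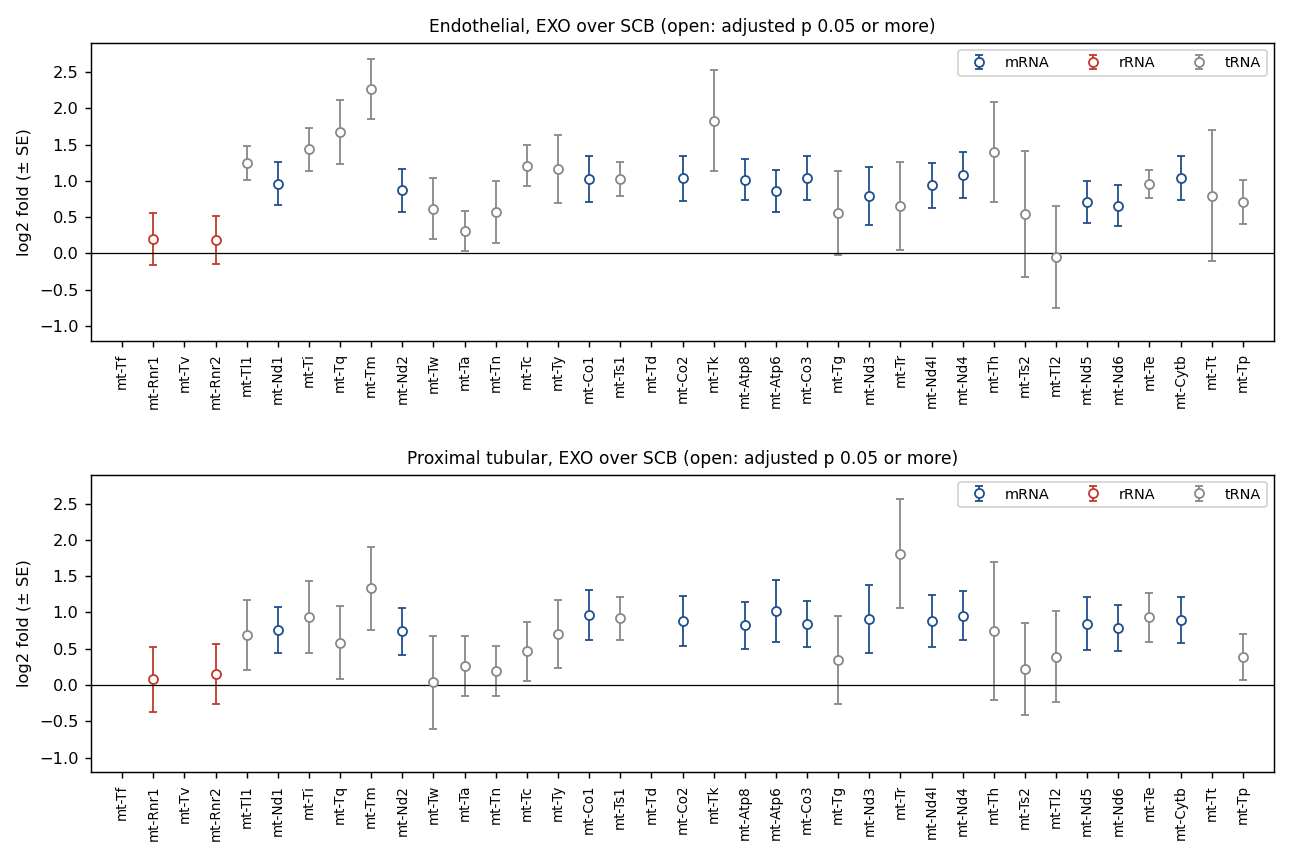
Fitted log2 fold change, EXO over SCB, with its SE for each tested mitochondrial gene in map order, endothelial above and proximal tubular below; open points did not pass an adjusted p of 0.05, and genes with no point failed the filter on low counts. The mRNAs lie between 0.66 and 1.08 in endothelial and between 0.74 and 1.02 in tubular cells, and both rRNAs lie between 0.08 and 0.19.

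The plot of EXO over SCB fold changes along the mitochondrial map shows the mRNAs at a common height and the 2 rRNAs near 0. The median over the 13 mRNAs was 0.96 in endothelial cells, where the median of all 16316 genes tested was 0.02, and 0.88 in tubular cells, where the median of all 14913 genes was -0.02. Of the 34 mitochondrial genes tested in endothelial cells, edgeR called 0, as it did for 0.0% of all genes, while 22 had an unadjusted p under 0.05 and DESeq2 called 15, against 2.53% of all genes. Of the 32 tested in tubular cells, edgeR called 0, against 5.13% of all genes (2.72% higher, 2.41% lower), while 16 had an unadjusted p under 0.05 and DESeq2 called 8, against 12.3% of all genes. The tubular median was 0.56 without the first SCB library. Adding the reads of the nuclear copies left the medians at 1.01 in endothelial and 0.82 in tubular cells.

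The rRNAs stayed near 0 on the same scale. mt-Rnr2 had 2769, 4580 and 4100 CPM in endothelial EXO libraries, against 2353, 4373 and 4634 CPM in endothelial SCB libraries, a log2 fold change of 0.19 ± 0.34. In tubular cells it had 2014, 2199 and 3518 CPM with EXO and 1181, 3166 and 3670 CPM with SCB, a log2 fold change of 0.15 ± 0.42. The EXO and SCB libraries overlapped in both. For mt-Rnr1 the log2 fold changes were 0.19 ± 0.36 in endothelial and 0.08 ± 0.44 in tubular cells.

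The ratio of rRNA to mRNA within a library does not depend on how libraries are scaled, and it was examined after these values had been seen. Per 100 mitochondrial mRNA reads there were 4.83 and 3.40 rRNA reads in the endothelial mimic libraries, 2.79, 3.01 and 2.64 in the endothelial EXO libraries, and 3.99, 5.35 and 4.99 in the endothelial SCB libraries. In tubular libraries the ratio was 3.12 and 6.98 with the mimic, 3.32, 3.09 and 3.63 with EXO, and 3.89, 4.98 and 7.78 with SCB. In each cell type all EXO libraries lay below all SCB libraries, and the EXO libraries were close together.

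The mean ratio was 2.81 ± 0.186 with EXO and 4.78 ± 0.705 with SCB in endothelial cells (SD, n = 3 each; exact two-sided permutation p = 0.1, the smallest possible, adjusted 0.35 over 7 comparisons). In tubular cells it was 3.35 ± 0.268 with EXO and 5.55 ± 2.01 with SCB (exact permutation p = 0.1, adjusted 0.35). Without the third tubular SCB library the tubular difference shrank to -1.08, against -2.20 with it. With the reads of the nuclear copies counted as mRNA the tubular groups overlapped and the difference was -1.86 (exact permutation p = 0.2).

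**Figure D3:**
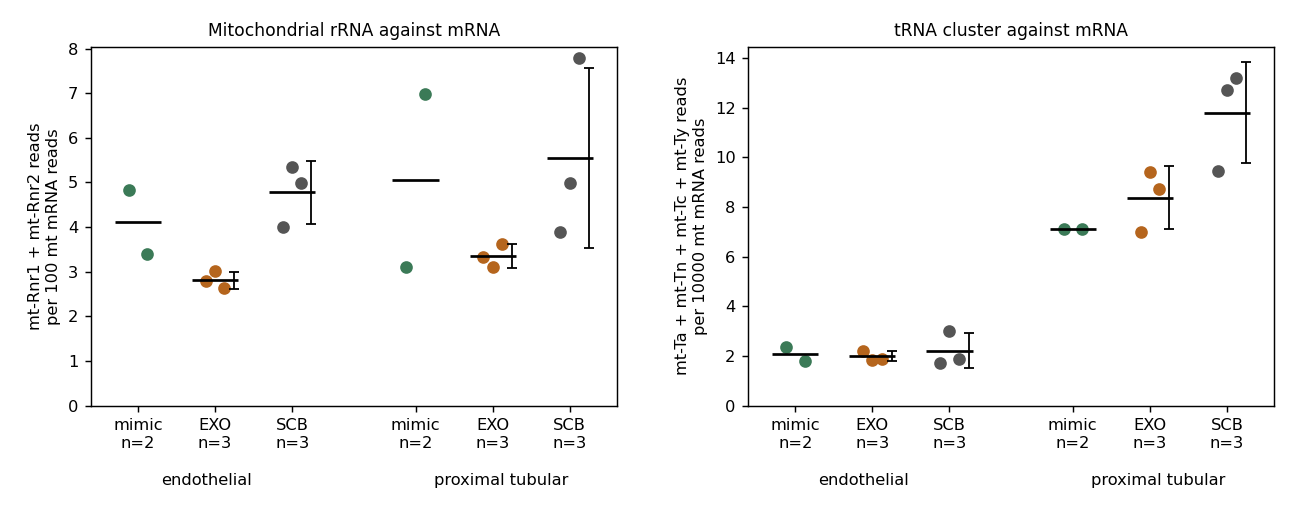
Left: mt-Rnr1 plus mt-Rnr2 reads per 100 mitochondrial mRNA reads. Right: mt-Ta, mt-Tn, mt-Tc and mt-Ty reads per 10000 mitochondrial mRNA reads. Points are libraries, bars group means, whiskers 1 SD for groups of 3; on the left the EXO means are 2.81 and 3.35 against 4.78 and 5.55 for SCB, and on the right endothelial libraries average 2.09 against 9.34 for tubular libraries.

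The left panel of the plot of within-library ratios shows the tight EXO groups beside the wider SCB and mimic groups. In the same EXO and SCB comparison, 17 tubular tRNAs passed the filter on low counts with a median log2 fold change of 0.58, and 19 endothelial tRNAs with a median of 0.96. mt-Ts1 was at 1.02 ± 0.24 in endothelial and 0.92 ± 0.30 in tubular cells, close to the mRNAs. mt-Tl1, the leucine tRNA that follows mt-Rnr2, had 343, 601 and 471 reads in endothelial EXO libraries, against 133, 179 and 196 reads in endothelial SCB libraries, a log2 fold change of 1.25 ± 0.24 (edgeR adjusted p = 0.186).

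Marker levels moved with this comparison. The summed level of 9 injured tubule markers, such as Havcr1 and Lcn2, was 7793 CPM (2512 to 18089) in endothelial EXO libraries and 25617 CPM (20452 to 30616) in endothelial SCB libraries. In tubular libraries it was 449 CPM (337 to 667) with EXO and 2991 CPM (792 to 5194) with SCB, and Krt20 was at 0 in every tubular EXO library. By edgeR 5 of the 9 fell in tubular EXO cells, where 2.41% of all genes fell. Proximal tubule markers summed to 39913 CPM (36822 to 45968) in tubular EXO libraries and 24386 CPM (17003 to 28367) in tubular SCB libraries, with no overlap. By gene, 9 of the 12 had a fitted fold change above 0, and edgeR called 2 higher and 0 lower, where 2.72% of all genes rose. Thick ascending limb markers summed to 27618 CPM (20986 to 37739) in endothelial EXO libraries and 16180 CPM (8678 to 23689) in endothelial SCB libraries. The part of these markers in the differences of mitochondrial and nuclear subunit genes was not tested.

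Nuclear genes for the same respiratory complexes were set beside the mitochondrial mRNAs. Of 77 nuclear-encoded subunits, 29 rose and 0 fell in tubular EXO against SCB cells, where 2.72% of all genes rose, and their median log2 fold change was 0.55. Of the 36 in complex I, 13 rose, among them Ndufb8 (0.98 ± 0.16, adjusted p = 0.0243 by edgeR) and Ndufa7 (0.90 ± 0.14). Of the 12 in complex IV, 6 rose, led by Cox7c (0.95 ± 0.16), Cox7b (0.94 ± 0.16) and Ndufa4 (1.04 ± 0.18). Of the 16 in complex V, 7 rose, with Usmg5 at 0.90 ± 0.16 and Atp5l at 0.83 ± 0.15. Complex III had 3 of 9, led by Uqcr11 (0.93 ± 0.18), and complex II had 0 of 4. In endothelial cells the fitted fold change was above 0 for 77 of 77 with a median of 0.55, in a comparison where edgeR called 0.0% of all genes.

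Of 35 genes for transcription, replication and processing of the mitochondrial genome, 2 rose and 1 fell in tubular EXO cells, where 2.72% of all genes rose and 2.41% fell. Slirp, an RNA-binding stabiliser of mitochondrial mRNAs, was at 0.68 ± 0.16 (adjusted p = 0.0455, edgeR), and Hsd17b10, a subunit of the mitochondrial RNase P that frees tRNAs, at 0.65 ± 0.13 (adjusted p = 0.0343). Lrpprc, the partner of SLIRP, fell, at -0.54 ± 0.13 (adjusted p = 0.0481). Tfam, the packaging and transcription factor of mitochondrial DNA, was at 0.40 ± 0.15 (adjusted p = 0.138), Polrmt, the mitochondrial RNA polymerase, at -0.05 ± 0.24, and Ppargc1a, a coactivator of mitochondrial biogenesis, at 0.02 ± 0.25. In endothelial cells Ppargc1a was at 0.82 ± 0.23 (adjusted p = 0.238), with 110.5 ± 28.9 CPM for EXO and 70.9 ± 16.7 CPM for SCB (SD, n = 3 each).

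The mimic comparison asks what miR-486-5p adds over a scrambled miRNA. With 2 mimic and 3 SCB libraries, no mitochondrial gene passed the edgeR test in either cell type. In tubular cells the median over the 13 mRNAs was 0.01, where 0.0201% of all genes were called, 0 of 32 mitochondrial genes had an unadjusted p under 0.05 and DESeq2 called 0, against 5.18% of all genes. mt-Co1 had 16634 and 9821 CPM in tubular mimic libraries, against 9766, 20113 and 14195 CPM in tubular SCB libraries, with full overlap. In endothelial cells the median was 0.37, all 13 mRNAs were positive, 0 of 34 genes were called by edgeR (0.0% of all genes), 5 had an unadjusted p under 0.05, and DESeq2 called 2, against 8.3% of all genes. That median was 0.16 without the first endothelial SCB library and 0.22 without the first endothelial mimic library, and over all alternatives as few as 11 mRNAs were positive. mt-Co1 had 33734 and 29809 CPM in endothelial mimic libraries, above the 19024, 25617 and 28396 CPM of the endothelial SCB libraries. Of the 77 nuclear-encoded subunits, 76 had a fitted fold change above 0 in endothelial mimic against SCB cells, with a median of 0.70. In tubular cells 46 of the 77 did, with a median of 0.07. By edgeR 0 of the 77 were called in either cell type. The injured tubule markers summed to 2892 CPM in endothelial mimic and 25617 CPM in endothelial SCB libraries, and the thick ascending limb markers to 46360 and 16180 CPM. In tubular libraries the injured tubule markers summed to 298 CPM (248 to 349) with the mimic and 2991 CPM (792 to 5194) with SCB. Proximal tubule markers summed there to 45542 CPM (39688 to 51397) and 24386 CPM (17003 to 28367). Neither tubular sum overlapped between the groups, and edgeR called 0 of the 9 and 0 of the 12. The part of these markers in the differences was not tested.

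Set against exosomes, the mimic libraries had lower fitted levels of all 13 mRNAs in both cell types. The median log2 fold change, mimic over EXO, was -0.82 in tubular cells (0 of 32 called by edgeR, as for 0.0% of all genes, 12 with an unadjusted p under 0.05, DESeq2 0 and 1.6% of all genes) and -0.55 in endothelial cells (0 of 34, 0.0% of all genes, 6 with an unadjusted p under 0.05, DESeq2 0 and 0.0306% of all genes). mt-Co1 stood at 16634 and 9821 CPM in tubular mimic libraries, all below the 20477, 23262 and 31170 CPM of the tubular EXO libraries. Of the 77 nuclear-encoded subunits, 61 had a fitted fold change above 0 in endothelial cells (median 0.12) and 8 in tubular cells (median -0.53). By edgeR 0 of the 77 were called in either. The comparison of mimic and EXO shares libraries with those above. Whether the treatment effects differ between cell types was tested directly as an interaction. The median difference over the mRNAs, tubular minus endothelial, was -0.10 for EXO against SCB and -0.33 for the mimic against SCB. Leaving out 1 library moved the EXO value between -0.34 and 0.22, turning its sign, and the mimic value between -0.63 and -0.01, both limits coming from the first and second tubular SCB libraries. None of the 34 genes was called by edgeR in either (0.0% of all genes each), with 0 for EXO and 1 for the mimic at an unadjusted p under 0.05, and DESeq2 called 0 in both, against 0.198% and 3.55% of all genes.

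Between cell types, averaged over the 3 treatments, 10 of the 13 mRNAs were higher in endothelial than in tubular libraries, and tRNAs went both ways, with 2 of 19 higher and 6 lower. By edgeR, 12 of the 34 genes tested were higher and 6 lower in endothelial cells, where 36.3% of all 17143 genes were higher and 29.9% lower (66.2% in all), and DESeq2 called 20, against 67.6% of all genes. The count of higher genes is close to that background, and the count of lower genes is below it.

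The highest log2 fold changes among the mRNAs, endothelial over tubular, were those of mt-Atp8, mt-Nd4 and mt-Nd4l. By complex, the median was 0.83 in complex V, 0.69 in complex IV and 0.60 in complex I, where 4 of 7 mRNAs passed. mt-Atp8 was at 0.93 ± 0.20 (adjusted p = 0.00104, edgeR), with 2836 to 7535 CPM over endothelial libraries and 1275 to 3834 CPM over tubular libraries, ranges that overlap. mt-Nd4 was at 0.90 ± 0.22 (adjusted p = 0.00233) and mt-Nd4l at 0.84. The complex IV subunits mt-Co1, mt-Co3 and mt-Co2 were at 0.73, 0.69 and 0.65, mt-Atp6 at 0.73, mt-Nd2 at 0.71, mt-Cytb at 0.69 and mt-Nd1 at 0.60. The calls of mt-Nd1, mt-Co2 and mt-Atp6 were lost without the second tubular mimic library (adjusted p = 0.0611, 0.061 and 0.0593), and that of mt-Nd1 also without the first endothelial mimic library (adjusted p = 0.0518). With a block by library number, edgeR did not call mt-Nd1, mt-Co1, mt-Co2, mt-Atp6, mt-Co3 or mt-Cytb.

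The mRNAs of mt-Nd5, mt-Nd6 and mt-Nd3 and both rRNAs did not pass. mt-Nd5 was at 0.51 (adjusted p = 0.0554), mt-Nd6 at 0.44 (0.0679) and mt-Nd3 at 0.22 ± 0.30 (0.541), all by edgeR. DESeq2 called mt-Nd5 and mt-Nd6 (adjusted p = 0.0236 and 0.0396). mt-Rnr1 was at 0.41 and mt-Rnr2 at 0.51 (edgeR adjusted p = 0.21 and 0.101). mt-Nd6 and mt-Nd5 overlap tail to tail on opposite strands, and their ratio was 30.2 ± 1.74 mt-Nd6 reads per 100 mt-Nd5 reads in endothelial and 31.9 ± 5.10 in tubular libraries. Whether reads were counted by strand is not given in the sources used here, so reads of such overlapping pairs may not be told apart.

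**Figure D4:**
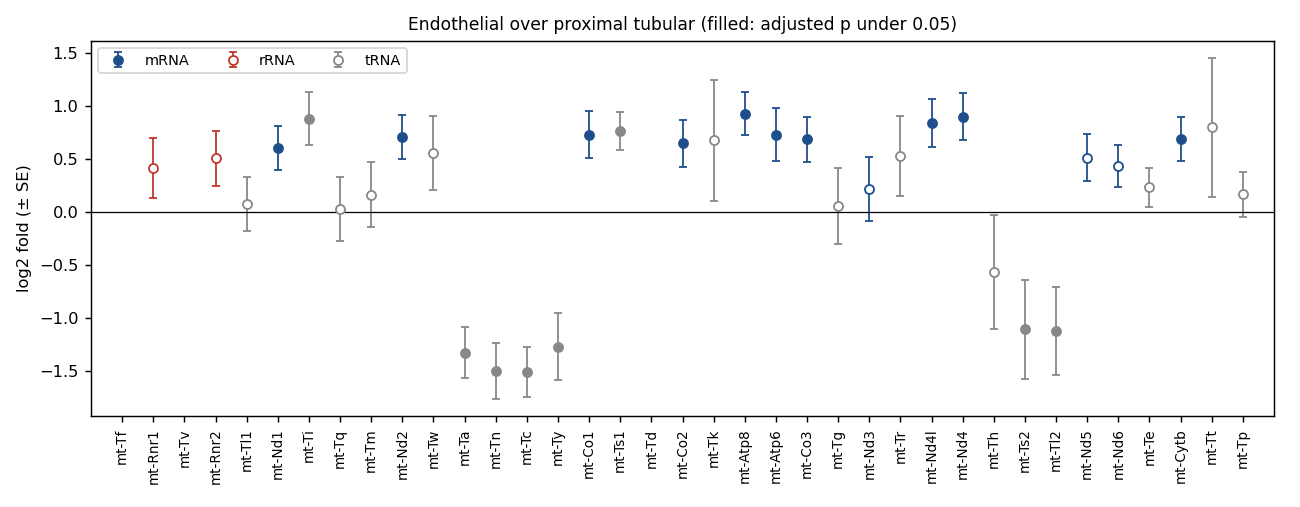
Fitted log2 fold change, endothelial over proximal tubular libraries, with its SE for each tested mitochondrial gene in map order; filled points passed an adjusted p of 0.05. The mRNAs lie above 0 and the 4 neighbouring tRNAs mt-Ta, mt-Tn, mt-Tc and mt-Ty lie between -1.27 and -1.51.

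The plot of endothelial over tubular fold changes shows the 4 neighbouring minus-strand tRNAs set apart from the genes on either side. mt-Tc had 137 and 174 reads in endothelial mimic, 133, 186 and 182 in endothelial EXO and 42, 66 and 78 in endothelial SCB libraries. It had 440 and 270 reads in tubular mimic, 273, 400 and 423 in tubular EXO and 146, 367 and 233 in tubular SCB libraries. The log2 fold change of mt-Tc, endothelial over tubular, was -1.51 ± 0.24 (adjusted p = 6.59e-05, edgeR). mt-Tn was at -1.50 ± 0.26 (0.00017), mt-Ta at -1.33 ± 0.24 (0.000191) and mt-Ty at -1.27 ± 0.32 (0.00263).

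Scaled to the mRNA of the same library, the 4 tRNAs together had 2.09 ± 0.432 reads per 10000 mitochondrial mRNA reads in endothelial libraries and 9.34 ± 2.46 in tubular libraries (SD, n = 8 each). The highest endothelial library, at 3.01, lay below the lowest tubular library, at 6.98, and the exact two-sided permutation test gave p = 0.000155. This sum of 4 was formed after their values had been seen. Among tubular libraries the ratio was 7.10 and 7.12 with the mimic, 8.38 ± 1.26 with EXO and 11.8 ± 2.04 with SCB (SD, n = 3 each; EXO against SCB exact permutation p = 0.1).

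None of the other 4 minus-strand tRNAs, mt-Tq, mt-Ts1, mt-Te and mt-Tp, was called lower in endothelial cells by edgeR. mt-Ts1 was higher in endothelial cells (0.77) and its ratio to its neighbour mt-Co1 was 1.09 ± 0.105 reads per 100 in endothelial and 1.04 ± 0.105 in tubular libraries (exact permutation p = 0.42). mt-Te, the glutamate tRNA between mt-Nd6 and mt-Cytb, had 0.693 ± 0.0699 reads per 100 mt-Cytb reads in endothelial and 0.921 ± 0.14 in tubular libraries (exact permutation p = 0.000777, adjusted 0.00544). On the plus strand, mt-Ti was higher in endothelial cells (0.88), and mt-Tl2 (-1.12 ± 0.41, adjusted p = 0.0264) and mt-Ts2 (-1.11 ± 0.47, adjusted p = 0.0497) were lower by edgeR. mt-Ts2 and mt-Tl2 are neighbours with few reads. The mt-Ts2 call was lost in most fits that left out 1 library and the mt-Tl2 call in 3 of them.

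Read depth limits the tRNAs. The median over 16 libraries was highest for mt-Ts1 at 3232 reads, mt-Te at 1563.5, mt-Tp at 331 and mt-Tl1 at 322.5, and lowest for mt-Tf at 0, mt-Tv at 1 and mt-Td at 3. The last 3 failed the filter on low counts in all fits, and mt-Tk and mt-Tt failed it in tubular cells as well, so 19 of the 22 tRNAs were tested in endothelial and 17 in tubular cells. The tRNA genes are 59 to 75 bases long and sequencing ran for 75 cycles. Reads of cut tRNAs were not told apart from reads of uncut precursors.

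How far the mix of mRNAs differed between cell types depended on whether reads of the nuclear copies were counted. Without them, complex I mRNAs held 29.9% ± 1.28 of mitochondrial mRNA reads in endothelial and 30.5% ± 1.42 in tubular libraries, complex IV mRNAs 45.8% ± 1.18 and 45.9% ± 1.00, complex III 11.7% ± 0.558 and 11.8% ± 0.477, and complex V 12.5% ± 0.810 and 11.7% ± 1.32. These ranges overlapped for each complex. By gene, 2 of the 13 shares of reads differed by an exact permutation test adjusted over the 13. These were mt-Atp8, at 3.27% in endothelial and 2.81% in tubular libraries, and mt-Nd4, at 7.97% and 6.93%. With the copies' reads added, 7 of the 13 passed, namely mt-Nd1, mt-Co2, mt-Atp8, mt-Atp6, mt-Nd3, mt-Nd4 and mt-Nd6. mt-Atp6 then held 12.3% of mRNA reads in endothelial and 10.5% in tubular libraries, and mt-Co2 9.54% in endothelial and 10.6% in tubular libraries, with no overlap for either (exact permutation test, adjusted p = 0.000505 each). Measured in TPM, 9 of the 13 shares passed, and mt-Atp8 held 65.9% ± 1.14 of mRNA TPM in endothelial and 61.6% ± 0.764 in tubular libraries, which moves every other share.

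Nuclear-encoded subunits ran the other way between the cell types. Of the 77, 68 were lower in endothelial cells and 0 higher, with a median log2 fold change of -0.56, where 29.9% of all genes were lower. By complex, 34 of 36 in complex I, 4 of 4 in complex II, 9 of 9 in complex III, 9 of 12 in complex IV and 12 of 16 in complex V were lower. Examples are Ndufb4 (-1.12 ± 0.12), Sdhc (-0.91 ± 0.09), Uqcr10 (-1.09 ± 0.11), Ndufa4 (-1.05 ± 0.12) and Atp5f1 (-0.77 ± 0.11), all past the edgeR test. Of the 35 genes for transcription and processing of mitochondrial DNA, 27 were lower and 0 higher. Tfam had 42.1 ± 7.5 CPM in endothelial and 60.0 ± 5.7 CPM in tubular libraries (log2 fold change -0.70 ± 0.10), and Lrpprc was at -0.82 ± 0.12 and Polrmt at -0.52 ± 0.13.

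Of 13 regulators of biogenesis, 4 were higher and 3 lower in endothelial cells, where 36.3% of all genes were higher and 29.9% lower. Ppargc1a was at 1.34 ± 0.16 and Esrrb, an orphan nuclear receptor, at 3.78 ± 0.29, while Sirt3, a mitochondrial deacetylase, was at -1.68 ± 0.14 and Ppara, a receptor that drives fatty acid oxidation genes, at -2.13 ± 0.25, all past the edgeR test. Markers moved with this comparison too. Of the 10 thick ascending limb markers 9 were higher in endothelial cells, of the 10 endothelial markers 10 were, and of the 12 proximal tubule markers 12 were lower. Also higher were 6 of 6 podocyte, 9 of 9 distal tubule and collecting duct, 8 of 8 macrophage and 5 of 5 erythroid markers. Of 9 injured tubule markers 6 were higher and 0 lower, and of 6 fibroblast and pericyte markers 3 were higher and 1 lower. The part of each cell type in the mitochondrial differences was not tested.

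Untreated AKI and sham samples were compared in the authors' deposited tables alone, and the labels mark those samples as re-analysed from earlier records. Their origin and their treatment cannot be told apart in comparisons with the treated groups. The 12 tables share control samples, so they are not independent of one another. Their fold changes can lie near 0 beside a small p, as for Gm10222 in endothelial exosomes over sham (log2 0.03 and, from the authors' DESeq2, p = 2.22e-09), so folds from different tables were neither added nor subtracted.

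In the authors' deposited tables for endothelial cells, mitochondrial genes differed mainly where exosomes were involved. In exosomes over sham 9 of the 37 genes passed an adjusted p of 0.05, all higher with exosomes (6.73% of all genes were called), and the median over the mRNAs was 0.68 log2. The authors' deposited table gave mt-Nd4l 0.96, mt-Nd4 0.90, mt-Co2 0.88 and mt-Cytb 0.87. In untreated injury over exosomes, a ratio with the treated group below the line, 12 genes passed, all negative and so higher with exosomes (3.77% of all genes), and the mRNA median was -0.73. There the authors' deposited table gave mt-Co2 -1.15 ± 0.34 and mt-Nd4 -1.02 ± 0.37, and mt-Ti, the isoleucine tRNA, -1.87 ± 0.27 (adjusted p = 5.52e-09).

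The other endothelial tables held few mitochondrial calls. In the authors' deposited table of the mimic over sham 2 tRNAs passed, mt-Tv at 2.92 and mt-Tw at 1.32 (11.6% of all genes), and the mRNA median was 0.24. In the 16 libraries with per-sample values mt-Tv had too few reads to pass the filter on low counts. In untreated injury over the mimic, again with the treated group below the line, the authors' deposited table called mt-Ti (-0.93) and mt-Tr (-1.43), with 10.2% of all genes called. The tRNA mt-Tr had a median count below 10 reads in the libraries with per-sample values. Untreated injury over SCB had 0 mitochondrial calls in the authors' deposited table (0.757% of all genes, 1 at an unadjusted p under 0.05, mRNA median -0.03), and untreated injury over sham also had 0 (4.41%, 1 at an unadjusted p under 0.05, median -0.05).

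**Figure D5:**
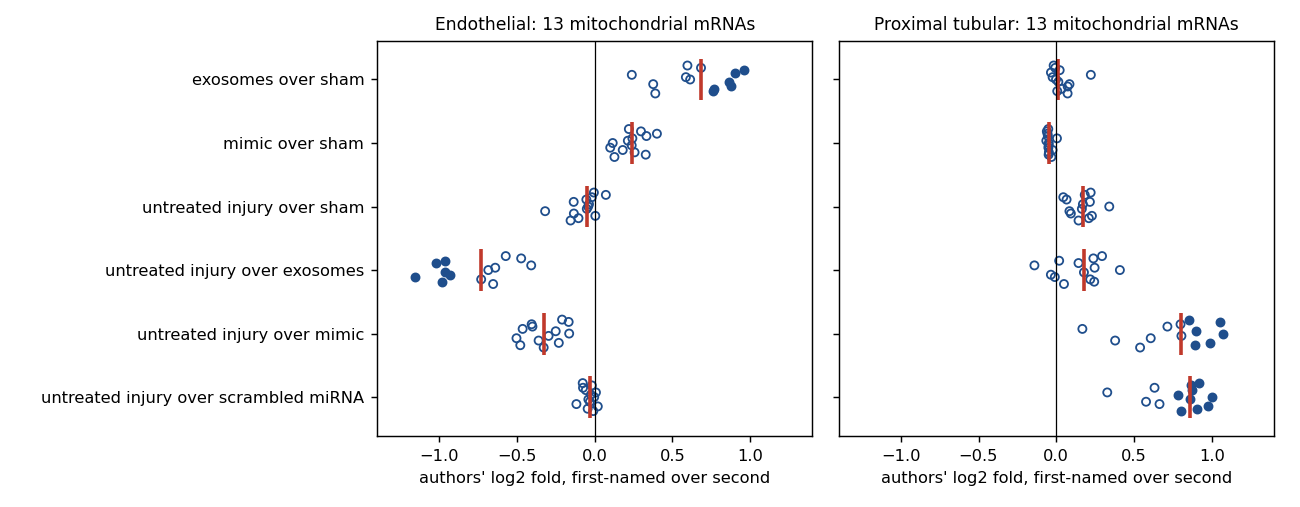
Log2 fold changes of the 13 mitochondrial mRNAs in the authors' deposited tables, first-named group over second, endothelial left and proximal tubular right; each point is a gene, filled where the authors' adjusted p is under 0.05, and the red line is the median. In endothelial tables the medians stand apart from 0 for exosomes over sham (0.68) and untreated injury over exosomes (-0.73), in tubular tables for untreated injury over the mimic (0.80) and over scrambled miRNA (0.86).

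The plot of the authors' fold changes shows a different pattern in tubular cells. In untreated injury over SCB, with the treated group below the line, the authors' deposited table called 11 genes, 9 of them mRNAs, all positive and so lower with SCB (17.8% of all genes), with an mRNA median of 0.86 and mt-Nd1 at 1.00 ± 0.40. In untreated injury over the mimic 6 mRNAs passed, all positive and so lower with the mimic (22.9% of all genes), with a median of 0.80, and the authors' deposited table gave mt-Nd1 1.07 ± 0.44 and mt-Nd5 1.05 ± 0.45. In untreated injury over exosomes 0 mRNAs passed (median 0.18), and 4 tRNAs did, all higher with exosomes, with 30.9% of all genes called. The authors' deposited table listed those as mt-Tl2 (-1.28), mt-Ti (-1.21), mt-Tq (-1.19) and mt-Tn (-0.87).

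Against sham, the median fold change of the tubular mRNAs lay between -0.05 and 0.17 in the authors' deposited tables. Folds in these tables can lie near 0 beside a small p, so such a median does not show that nothing changed. Exosomes over sham had 0 mRNAs and 2 tRNAs called, mt-Tc at 0.91 and mt-Tn at 0.84 (11.2% of all genes, mRNA median 0.01). The mimic over sham had 0 calls (1.03% of all genes, 3 at an unadjusted p under 0.05, median -0.05). Untreated injury over sham had 1, mt-Tl2 at -1.25 (20.2% of all genes, median 0.17). In the authors' deposited tables the nuclear subunits of tubular cells did not follow the mitochondrial mRNAs. In exosomes over sham 58 of the 77 were higher and 0 lower (median 0.79, 11.2% of all genes called in either direction). In untreated injury over exosomes 62 were lower and 0 higher (median -0.86, 30.9% of all genes), that is higher with exosomes. The mitochondrial mRNA medians of the same tables were 0.01 and 0.18. Untreated injury over the mimic had 18 lower and 0 higher (median -0.32, 22.9% of all genes). Over SCB it had 17 lower and 0 higher (median -0.21, 17.8%). The mitochondrial mRNA medians there were 0.80 and 0.86. Untreated injury over sham had 3 lower (median 0.02, 20.2%), and the mimic over sham had 0 called (median 0.08, 1.03%).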

How the data were processed

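The libraries were made from total RNA with the NEB Next Ultra II kit in its poly(A) workflow and sequenced on a NextSeq 500 for 75 cycles, per the labels' protocols. The authors quantified transcripts with Salmon 0.13.1 against GRCm38 and compared groups with DESeq2, per the submitters' processing notes; the strand setting is not given in the sources used here. The deposited per-library files give estimated counts and TPM per transcript, per the file headers. The authors' deposited comparison tables give a base mean (a normalised signal), a log2 fold change, its standard error and a p-value with its adjusted value per gene. Estimated counts and TPM were summed per gene and the counts rounded. CPM values are estimated counts scaled by the library's total.

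Genes were tested with edgeR 4.0.16 (TMM scaling, filterByExpr with a minimum count of 10, quasi-likelihood test) in R 4.3.3, per cell type over its 8 libraries and jointly over 16, with Benjamini-Hochberg adjustment over all genes at 0.05. DESeq2 1.42.0, no filter, scaling without the mt- genes, 2-group fits, a replicate block, added nuclear copies and leaving out each library were alternatives. Shares and ratios were tested by exact two-sided permutation over libraries. Nuclear copies were found with BLAST+ 2.17.0 at 90% identity and kept at 99% over at least 250 aligned bases. The code was tested on simulated data. Replicates differed by more than counting noise in every pair.

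All mt- genes were accounted for. The mRNAs and rRNAs were described with values, tRNAs where they passed a test or held the highest or lowest counts, and up to 3 called genes per nuclear list with the smallest p, plus Ppargc1a, Tfam, Polrmt and Lrpprc. The members and lists were chosen with earlier results of these data known. Same-numbered libraries did not deviate together by the correlation rule used, so they were treated as unpaired. The correlation was above 0.1 in 3 of 7 same-numbered pairs and in 2 of 15 pairs with different numbers. Deviations were taken from means of groups of 2 or 3, so this check cannot show whether a shared number is a single mouse.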

Additional observations from a re-analysis of the deposited data

Results flagged for a closer look

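Reads on the 7 near-identical nuclear copies were outside the 37 genes described. They held 9.38% of the reads on copies plus mitochondrial genes in the library with the lowest share, and 16.8% in the library with the highest. They were listed because the reads lie outside the main measurement. Reads in the shared stretches cannot be told apart between both genomes, so the shares do not show how much the copies are transcribed.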

How the results depend on the processing

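The 13 mRNAs were higher with EXO than with SCB in both cell types, and higher in endothelial than in tubular cells, under every alternative run for those comparisons. Whether single genes passed the test depended on the method. Counts of called mitochondrial genes by DESeq2 were 15 for endothelial EXO against SCB, 8 for tubular EXO against SCB and 2 for the endothelial mimic against SCB, where edgeR called 0 each. Without the filter on low counts the edgeR counts were 17, 13 and 2 in those comparisons, 1 for the tubular mimic against SCB, 7 for the tubular mimic against EXO and 1 for the mimic interaction. Fitting the 2 groups alone gave 1 for the endothelial mimic against SCB. A replicate block by library number did not qualify as a pairing by the correlation rule used (same-numbered libraries correlated at -0.15 to 0.25). With this block 9 genes were called between the cell types (5 higher, 4 lower), against 18 without the block. The higher calls of mt-Nd1, mt-Co1, mt-Co2, mt-Atp6, mt-Co3, mt-Cytb and mt-Ti and the lower calls of mt-Tl2 and mt-Ts2 were not made with it (edgeR, adjusted p = 0.0522 to 0.114). With it the median mimic interaction was 0.0646. Of the 13 mRNA shares, 9 differed between cell types in TPM, 2 in reads and 7 in reads with the nuclear copies added. The cause was not tested.

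Leaving out 1 library at a time, the calls were 0 throughout for EXO against SCB, for the tubular mimic against SCB, for the mimic against EXO and for both interactions, 0 to 2 for the endothelial mimic against SCB, and 14 to 19 between the cell types. The mRNA median ranged from 0.74 to 1.19 for endothelial and from 0.56 to 1.10 for tubular EXO against SCB, and from 0.16 to 0.55 for the endothelial mimic against SCB. The difference in mitochondrial share ranged from 6.84 to 11.4 points and from 2.80 to 5.41 points in those comparisons, from 6.06 to 8.16 points between the cell types, and from -1.98 to 0.951 points for the tubular mimic against SCB, with a reversed sign at 0.951 and 0.675. The number of mRNA shares of TPM that passed ranged from 8 to 11. Groups of 2 or 3 libraries limit every treatment comparison, and median counts below 10 reads limit mt-Tf, mt-Tv, mt-Td, mt-Tk, mt-Tt, mt-Tr and mt-Ts2, the last of which was called lower in endothelial cells.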
